A study of Mus musculus with 32 samples.

Results

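Receptors for the cytokines that keep blood progenitors alive were followed here by gene symbol: the receptor tyrosine kinases Kit, Flt3 and Csf1r, the erythropoietin receptor Epor, the granulocyte colony-stimulating factor receptor Csf3r, the interleukin chains Il6ra and Il3ra, and the granulocyte-macrophage colony-stimulating factor chains Csf2ra and Csf2rb. Of these 9 genes, 6 matched a row of the count table, which held 27728 genes, and Csf2ra, Csf2rb and Il3ra were not analysed here. RNA was sequenced from mouse progenitors in a Lin- cKit+ Sca1- sort, a gate that selects on the protein product of Kit, 1 of the receptors measured. The study lowered or mutated U2af1, a splicing factor gene, in E14.5 fetal liver and in adult bone marrow.

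Fetal batch A held Cre-free embryos of genotype U2af1(flox/flox) (the flox control, n = 3), Vav1-Cre/U2af1(wt/flox) embryos (heterozygous deletion, n = 3), Vav1-Cre/U2af1(flox/flox) embryos (homozygous deletion, n = 3) and 1 library of Vav1-Cre alone. Fetal batch B held Vav1-Cre/U2af1(wt/S34F) embryos (n = 4) and 1 library of Vav1-Cre alone. All fetal groups were untreated. Vav1-Cre acts in blood cells. The flox control lacked it, so presence of Cre and deletion cannot be told apart in comparisons with that group. Adult mice of the dose groups carried Mx1-Cre with rTA and tgU2AF1(WT) on a U2af1(flox/S34F) background, in which Mx1-Cre is switched on by pIpC and a transgene of wild-type U2AF1 by doxycycline. They received pIpC and doxycycline chow, with 4 libraries at 1250 ppm, 6 at 2500 ppm and 4 at 10000 ppm. Untreated controls (n = 3) carried the same Mx1-Cre, rTA and tgU2AF1(WT) with U2af1(wt/wt), so genotype, pIpC and doxycycline all differed from it and cannot be told apart. The labels do not say that replicates came from separate animals, so p-values measure the spread between these libraries.

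A cytokine receptor binds its ligand outside the cell and passes the signal on by phosphorylation. Kit, Flt3 and Csf1r carry their own kinase domain, whereas Epor, Csf3r and the interleukin receptors rely on bound Janus kinases and STAT proteins. The receptors mark branches of blood formation: Kit marks early progenitors and mast cells, Flt3 lymphoid and dendritic precursors, Csf1r monocytes and macrophages, Epor the red cell lineage, and Csf3r the neutrophil lineage.

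Total counts ran from 26588099 to 71251200 per library, and in 45 of 45 pairs of replicates the difference exceeded counting error. Levels are given as CPM, counts per 1000000 counts, after trimmed-mean (TMM) scaling, and CPM per kilobase of annotated exon where genes are compared with each other. A call means an adjusted p under 0.05 (edgeR quasi-likelihood, Benjamini-Hochberg over all genes tested). Replicate 3 of the flox control and replicate 3 of the untreated adults stood apart from the others of their groups on several receptors, and results that rest on them are given with and without them. Kit, the gene of the sort marker, was present in all 32 libraries, at 231 to 789 CPM. In bulk libraries, fewer cells of a type and less RNA per cell cannot be told apart.

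The promoters of 5 receptors are shown, 4 of genes that fell in the homozygous deletion (Kit, Flt3, Epor and Il6ra) and that of Csf3r, which was not called. The Csf1r promoter was not used here. They are RefSeq sequences on GRCm38.p6, from 250 bases before to 50 bases after the annotated start site, written along the gene's strand: Kit at chr5:75574737-75575036 (+), Flt3 at chr5:147400440-147400739 (−), Epor at chr9:21963527-21963826 (−), Csf3r at chr4:126024409-126024708 (+) and Il6ra at chr3:89913147-89913446 (−). The Epor start site used by RefSeq lay upstream of the gene's GENCODE boundary. Capitals mark matches to the motifs searched on both strands, none of which overlapped another. For GATA factors, which act in red cells and early progenitors, the motif was AGATAA or else the variant TGATAA. For the PU.1 family it was GAGGAA, and for RUNX factors TGTGGT. For the C/EBP family it was TTGCNNAA, and for KLF factors it was CCACACCC or else the variant CCACGCCC.
Kit: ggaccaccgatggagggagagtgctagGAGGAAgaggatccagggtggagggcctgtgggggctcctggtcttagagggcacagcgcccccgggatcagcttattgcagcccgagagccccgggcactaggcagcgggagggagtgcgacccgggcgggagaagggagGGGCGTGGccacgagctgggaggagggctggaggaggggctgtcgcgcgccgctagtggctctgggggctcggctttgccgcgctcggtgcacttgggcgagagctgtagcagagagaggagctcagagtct
Flt3: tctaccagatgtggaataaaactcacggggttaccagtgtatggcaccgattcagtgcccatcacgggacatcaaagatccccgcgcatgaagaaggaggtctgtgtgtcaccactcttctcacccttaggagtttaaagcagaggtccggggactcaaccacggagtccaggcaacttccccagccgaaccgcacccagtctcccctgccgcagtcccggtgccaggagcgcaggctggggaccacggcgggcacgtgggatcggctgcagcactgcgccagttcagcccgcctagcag
Epor: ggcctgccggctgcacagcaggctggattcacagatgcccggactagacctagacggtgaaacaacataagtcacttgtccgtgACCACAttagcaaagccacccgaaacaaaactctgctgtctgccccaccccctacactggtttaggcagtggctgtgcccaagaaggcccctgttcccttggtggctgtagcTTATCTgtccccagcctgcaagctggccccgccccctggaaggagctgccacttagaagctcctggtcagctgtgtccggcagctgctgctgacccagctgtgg
Csf3r: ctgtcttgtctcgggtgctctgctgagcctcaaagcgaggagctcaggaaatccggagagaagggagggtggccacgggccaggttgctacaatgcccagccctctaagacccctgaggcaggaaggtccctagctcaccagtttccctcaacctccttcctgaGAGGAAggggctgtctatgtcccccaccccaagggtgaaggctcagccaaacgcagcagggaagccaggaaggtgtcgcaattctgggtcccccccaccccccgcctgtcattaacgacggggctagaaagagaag
Il6ra: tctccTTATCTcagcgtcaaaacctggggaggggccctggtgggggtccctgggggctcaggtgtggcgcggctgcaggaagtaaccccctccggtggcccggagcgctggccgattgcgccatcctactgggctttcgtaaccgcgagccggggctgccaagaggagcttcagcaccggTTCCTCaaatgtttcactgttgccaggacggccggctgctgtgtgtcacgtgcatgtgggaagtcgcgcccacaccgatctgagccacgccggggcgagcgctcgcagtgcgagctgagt

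The Kit promoter held GAGGAA and, on the other strand, CCACGCCC. The Epor promoter held AGATAA and TGTGGT, both on the other strand. Csf3r held GAGGAA, and Il6ra held AGATAA and GAGGAA on the other strand. None of these letters occurred in the Flt3 window. Among 32841 RefSeq promoters of the same length, AGATAA occurred in 11.2%, TGATAA in 9.05%, GAGGAA in 28.3%, TGTGGT in 16.8%, TTGCNNAA in 10.8%, CCACACCC in 3.56% and CCACGCCC in 5.33%.

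With both floxed U2af1 alleles deleted, fetal progenitors carried less transcript of 5 of the 6 receptors, and Csf3r was the exception. Csf1r was 9.25-fold lower, Flt3 5.09-fold, Il6ra 2.21-fold, Epor 2.04-fold and Kit 1.93-fold. Across all 12678 genes tested, 41.0% were called in either direction, 22.4% were called lower and 9.32% were called at least 2-fold lower. The receptors had a median log2 fold change of -1.09, beside -0.02 over all genes tested.

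**Figure D1:**
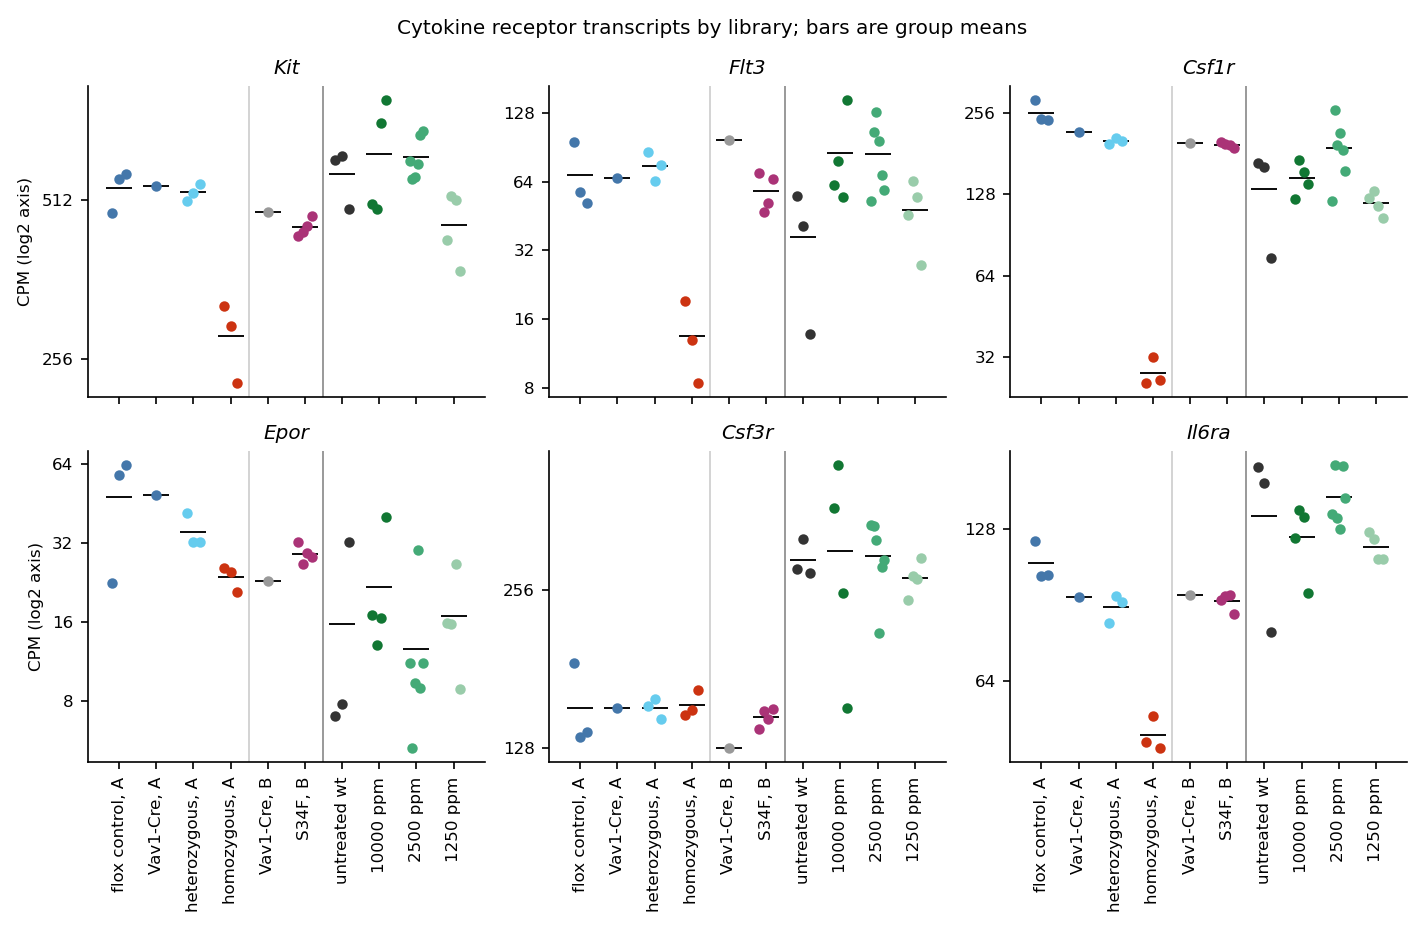
CPM (log2 axis) of the 6 receptors in each of the 32 libraries; points are libraries, black bars group means, and the vertical lines separate fetal batch A, fetal batch B and adult marrow. The homozygous deletion libraries lie below all other libraries for Kit, Csf1r and Il6ra, and all adult group means of Csf3r lie above all fetal ones.

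Csf1r (ENSMUSG00000024621, GRCm38 chromosome 18, 61100598 to 61132149, + strand) encodes the receptor for colony-stimulating factor 1 and interleukin 34. It read 285, 243 and 240.4 CPM in flox control replicates 3, 4 and 5, and 25.7, 32.1 and 26.3 CPM in homozygous replicates 2, 3 and 4. The groups were far apart, with no overlap. The log2 fold change was -3.21 ± 0.095 (SE) with an adjusted p of 4.57e-08, and Csf1r ranked 1 by p among the 12678 genes tested. Its exons overlap those of Hmgxb3 on the other strand, and the strand setting of the counting is not given in the sources used here, so reads of the pair cannot be told apart.

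Flt3 (ENSMUSG00000042817, chromosome 5, 147330741 to 147400489, − strand) binds Flt3 ligand and is used by lymphoid and dendritic precursors. Flox control replicates 3, 4 and 5 read 95.1, 57.8 and 51.7 CPM, and homozygous replicates 2, 3 and 4 read 19.2, 12.97 and 8.40 CPM. The lowest control was above the highest homozygous library. Its log2 fold change was -2.35 ± 0.28 (SE; adjusted p = 0.000133), and -2.02 without flox control replicate 3, the highest library (adjusted p = 3.64e-05).

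Kit (ENSMUSG00000005672, chromosome 5, 75574916 to 75656722, + strand) encodes the stem cell factor receptor on whose protein the cells were sorted. The controls read 484, 561 and 572 CPM and the homozygous libraries 323, 296 and 231 CPM. Transcript thus fell without overlap within a gate that required the protein, by 0.95 ± 0.10 (SE) on the log2 scale (adjusted p = 8.11e-05).

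Il6ra (ENSMUSG00000027947, chromosome 3, 89864059 to 89913196, − strand) is the ligand-binding chain for interleukin 6 and signals through Il6st, also called gp130. Control libraries held 121, 103 and 104 CPM, and homozygous libraries 48.6, 54.6 and 47.3 CPM. The fall of 1.14 ± 0.082 (SE) on the log2 scale had an adjusted p of 7.75e-06. Exons of Gm42809 on the other strand overlap it, so part of these reads is uncertain.

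Epor (ENSMUSG00000006235, chromosome 9, 21958897 to 21963506, − strand) carries the erythropoietin signal that red cell precursors need. Flox control replicate 3 read 22.5 CPM, whereas replicates 4 and 5 read 58.2 and 63.5 CPM. The homozygous libraries read 25.7, 24.8 and 20.9 CPM, so the groups overlapped through that 1 control. The log2 fold change was -1.03 ± 0.30 (SE; adjusted p = 0.0186), and -1.36 without flox control replicate 3 (adjusted p = 4.45e-06). The call was lost without flox control replicate 4 (-0.86, adjusted p = 0.0630) or 5 (-0.78, adjusted p = 0.0758), and without homozygous replicate 3 (-1.03, adjusted p = 0.0589) or 4 (-0.97, adjusted p = 0.0674).

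Csf3r (ENSMUSG00000028859, chromosome 4, 126024550 to 126044440, + strand) encodes the receptor that drives neutrophil production. It read 186, 134 and 137 CPM in the controls and 148, 151 and 165 CPM in the homozygous libraries. These ranges overlapped, and the log2 difference was 0.0085 (95% interval -0.24 to 0.26, adjusted p = 0.964). Without flox control replicate 3 the difference was 0.18 (adjusted p = 0.0743).

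Because Csf1r and Csf3r mark the monocyte and neutrophil branches, their log2 CPM difference was also taken within each library. Flox control libraries gave 0.62, 0.86 and 0.81, heterozygous libraries 0.35, 0.38 and 0.47, and homozygous libraries -2.52, -2.24 and -2.65. The homozygous mean lay 3.23 below the control mean and the heterozygous mean 0.36 below it. Each of these differences had an exact permutation p of 0.1 (two-sided), the smallest that 20 arrangements allow. The homozygous difference restates the fall of Csf1r, since Csf3r was not called. The sign of the difference depends on gene length: per kilobase of exon, Csf3r exceeded Csf1r also in flox control replicate 3 (51.5 against 49.4 CPM per kb) and in all 3 heterozygous libraries (40.2 to 43.97 against 33.9 to 35.9).

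Marker genes of several cell types moved in the same comparison. Of 7 monocyte and dendritic markers tested, 6 were lower, and their summed level was 689 to 971 CPM in the controls and 214 to 250.1 CPM in the homozygous libraries. Macrophage markers were lower in 9 of 10 and higher in 1, with sums of 139 to 148 CPM and 63.5 to 88.5 CPM. Within that list Cd5l and Marco, markers of tissue macrophages, had control medians of 11.6 and 11.9 CPM and were at 0 in the median homozygous library. Late erythroid markers were lower in 4 of 6 (sums of 589 to 970 CPM against 340.3 to 394 CPM), as were 4 of 4 lymphoid progenitor markers. B cell markers were lower in 5 of 5, with the lowest median log2 fold change of the marker lists (-5.99; sums of 59.7 to 125 CPM against 23.7 to 26.4 CPM), megakaryocyte markers in 7 of 7 (median -1.71) and endothelial markers in 4 of 4 (median -2.79). Mast and basophil markers were higher in 3 of 7 (median 0.95), with sums of 80.1 to 130.3 CPM and 116 to 197 CPM. Neutrophil progenitor markers were higher in 5 of 7, but their sums overlapped (14881 to 22066 CPM against 16151 to 18647 CPM). The part of these cells in the receptor values was not tested. Hepatocyte markers were lower in 9 of 9, and within the controls their sum was 101 CPM in replicate 3 against 625 and 400 CPM in replicates 4 and 5.

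After deletion of a single floxed allele, none of the 6 receptors was called against the same flox controls in edgeR. Over all genes 0.0316% were called. At an unadjusted edgeR p under 0.05, 2 of the 6 passed, as did 1120 of all 12678 genes tested. These receptors were Csf1r, at 196, 207 and 201 CPM in replicates 3, 4 and 5 (log2 fold change -0.34, adjusted p = 0.353), and Il6ra, at 83.7, 94.5 and 91.7 CPM (-0.27, adjusted p = 0.378). For both genes each heterozygous library read below each control. DESeq2 called 1 receptor, Csf1r (-0.35, adjusted p = 0.0356). Kit read 509, 528 and 549 CPM, within the control range (95% interval of the log2 difference -0.24 to 0.20), and Csf3r read 153, 159 and 145 CPM (-0.24 to 0.26). Flt3 read 86.0, 64.1 and 75.4 CPM, also within the control range.

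Epor in the heterozygous libraries stood at 41.7, 32.3 and 32.3 CPM, between the low and the high controls (log2 fold change -0.43, adjusted p = 0.713). Without flox control replicate 3 the difference was -0.78 with an adjusted p of 0.00729. The other 11 of 12 alternatives gave no call, and over all 12 the difference ran from -0.78 to -0.18. Of 10 macrophage markers none was called in the heterozygous libraries, where their median log2 fold change was -1.03 and their sums were 79.0 to 117 CPM. Of 6 late erythroid markers 0 were called (median -0.59), with sums of 303, 325 and 894 CPM against 589 to 970 CPM in the controls. Hepatocyte markers had a median of -2.5, with 0 of 9 called. The part of these cells in the Epor and Csf1r values was not tested.

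Set against the heterozygous deletion, which also carries Vav1-Cre, the homozygous libraries were lower for 4 of the 6 receptors, where 42.3% of all genes were called and 22.4% were called lower. The homozygous libraries are those compared with the flox control. Csf1r differed by -2.87, Flt3 by -2.50, Kit by -0.93 and Il6ra by -0.87 on the log2 scale (adjusted p from 1.29e-07 to 8.82e-05). Epor differed by -0.60 (adjusted p = 0.133) and Csf3r by -0.0014 (adjusted p = 0.993). The single Vav1-Cre library of batch A read 544 CPM for Kit, 66.4 for Flt3, 218 for Csf1r, 48.9 for Epor, 152 for Csf3r and 94.0 for Il6ra. For all receptors but Csf3r, it was above every homozygous library.

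**Figure D2:**
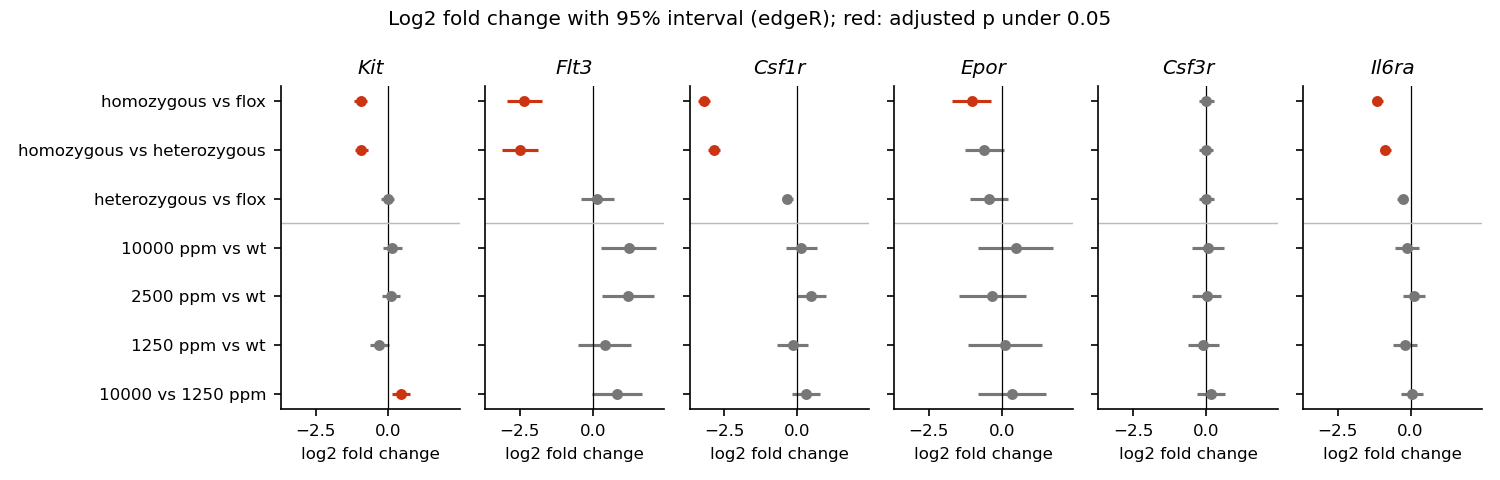
Log2 fold change (points) with 95% interval (lines) of each receptor in 7 comparisons; red points have an adjusted p under 0.05. In the comparison of the homozygous libraries with the flox control, 5 receptors lie left of 0, and of the adult comparisons plotted, Kit at 10000 against 1250 ppm is the single red point.

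Genes that work with these receptors changed in both directions in the homozygous deletion, where 41.0% of all genes were called, 2844 lower and 2350 higher of 12678. Of 18 partner and related receptors tested, 10 were lower and 2 higher (median log2 fold change -0.28). Il6st, the shared signalling chain that pairs with Il6ra, read 62.0 to 64.8 CPM in the controls and 17.3 to 19.9 CPM in the homozygous libraries, a log2 change of -1.75 ± 0.11 (SE; adjusted p = 3.80e-06). Both chains of the interleukin 6 receptor were thus lower. Il10ra, the interleukin 10 receptor chain, fell by 2.70 on the log2 scale, and the lymphoid receptor Il7r by 2.09, from a median of 7.40 to 2.18 CPM.

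Among ligands, 3 of 9 with a row were tested. Kitl, which encodes the Kit ligand, was low throughout, at 0.41 to 1.22 CPM in the controls and 0 to 0.22 CPM in the homozygous libraries (adjusted p = 0.0175). Csf1, which encodes a ligand of Csf1r, rose from a median of 17.7 to 54.0 CPM, with overlap between the groups (log2 fold change 0.96, adjusted p = 0.0477).

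Signal transducers were mixed, with 7 of 23 lower and 4 higher (median -0.075), a share called near that of all genes. Gab1, an adaptor that links receptors to downstream kinases, had a log2 fold change of -1.18, the Janus kinase Jak3 of -0.63 and the transcription factor Stat5b of -0.45. Stat5b read 205 to 228 CPM in the controls and 157 to 170.3 CPM in the homozygous libraries.

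Negative regulators were higher in 6 of 15 and lower in 1 (median 0.26), and genes known as targets of receptor signalling were higher in 9 of 16 and lower in none (median 0.45). Of all 12678 genes tested, 2350 were called higher. The lists share genes. Etv4, an ETS factor induced by receptor tyrosine kinase signalling in many cells, read 0.79 to 0.96 CPM in the controls and 9.004 to 12.2 CPM in the homozygous libraries, a log2 change of 3.66 ± 0.18 (SE; adjusted p = 9.54e-07). Its relative Etv5 rose by 1.57. The ERK phosphatase Dusp6 rose by 1.22, the feedback inhibitor Spry2 by 1.08, the adaptor Dok2 by 0.86 and the STAT5 target Cish by 0.77. Dusp6 read 20.5, 21.9 and 47.8 CPM in the controls and 65.9 to 73.5 CPM in the homozygous libraries. These genes, named for the largest called changes of both lists, rose in the same libraries in which 5 of the 6 receptors fell. Target genes not called included Myc (-0.17), Mcl1 (-0.0072) and Fos (0.79). A link between these changes and the receptors was not tested.

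Of 10 lineage transcription factors tested, 4 were higher and 2 lower. Irf8, required for monocyte and dendritic fate, read 164 to 236 CPM in the controls and 38.0 to 52.0 CPM in the homozygous libraries (log2 fold change -2.06). Klf4, a monocyte factor, fell by 2.36. Gfi1, a neutrophil factor, rose by 1.34 and Gata2, a factor of early progenitors and mast cells, by 0.90. Irf8 and Klf4 also stand in the monocyte marker list. In the heterozygous deletion, where 4 of 12678 genes were called, edgeR called no gene of any of these lists.

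**Figure D3:**
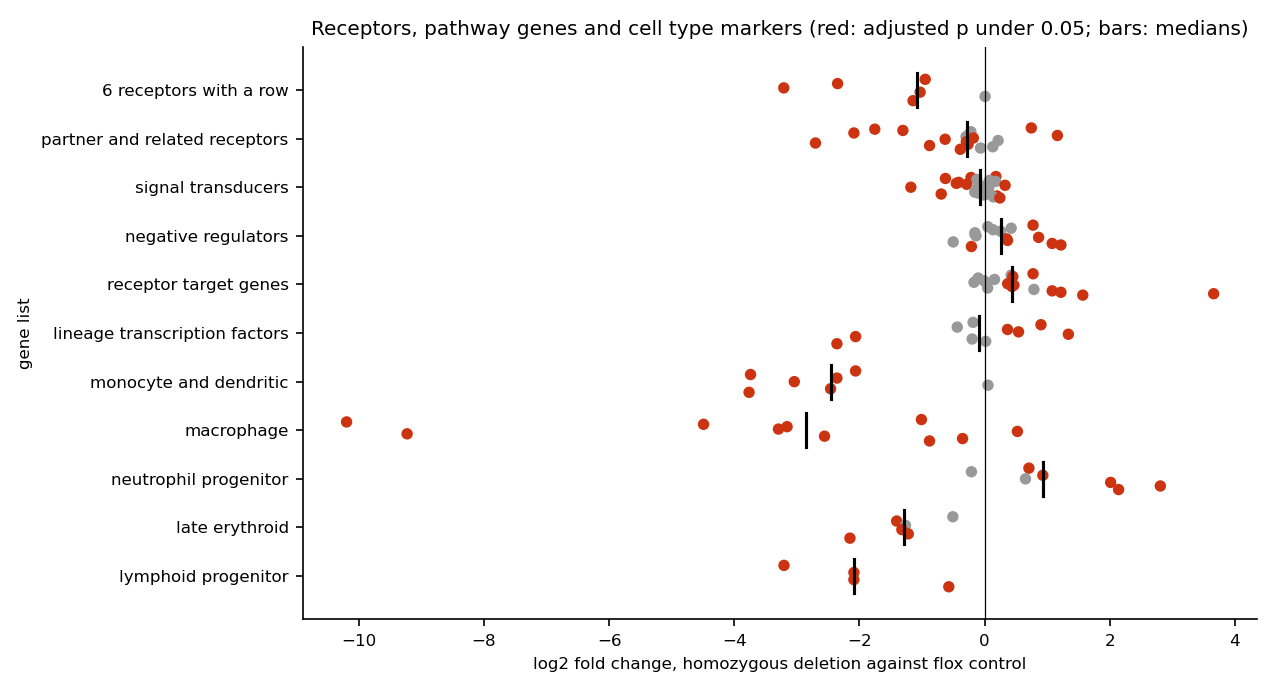
Log2 fold change, homozygous minus flox control libraries, for each tested gene (points; red where adjusted p is under 0.05) of the receptors, pathway lists and marker lists; black bars are medians. The receptors have a median of -1.09, receptor target genes of 0.45 and monocyte and dendritic markers of -2.46.

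The S34F libraries had 1 control in their batch, so no test was made, and ratios were taken after TMM scaling of the 5 libraries of that batch. No receptor differed 2-fold from the control in all 4 S34F libraries, a rule met by 1.02% of 11823 genes. Flt3 came nearest, with log2 ratios of -0.45, -1.03, -0.89 and -0.58 in replicates 1 to 4. Epor was above the control in all 4 libraries (0.23 to 0.52) and so was Csf3r (0.16 to 0.26), while Kit was slightly below (-0.12 to -0.03). Csf1r (-0.07 to 0.04) and Il6ra (-0.13 to 0.02) lay on both sides. In all, 4 of 6 receptors kept to 1 side of the control, as did 58.7% of genes. Among themselves the S34F libraries were close for Csf1r, at 189.6 to 199 CPM.

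In adult marrow, progenitors given 10000, 2500 or 1250 ppm doxycycline were compared with the untreated control, and edgeR called no receptor at any dose. The shares of all genes called were 1.27%, 0.487% and 11.4%. At an unadjusted edgeR p under 0.05 there was 1 receptor at 10000 ppm, 1 at 2500 ppm and 0 at 1250 ppm, Flt3 in both cases. Of all 13338 genes tested, 2974, 2027 and 4069 passed that threshold. DESeq2 called 1 receptor at 10000 ppm and 0 at the other doses. The 3 comparisons share the same 3 controls, in which replicate 3 differed from the other two: it read 13.7 CPM for Flt3 (55.1 and 40.7 in replicates 1 and 2), 74.5 for Csf1r (166 and 161), 80.1 for Il6ra (169 and 158) and 32.3 for Epor (6.97 and 7.79). Its late erythroid markers summed to 211 CPM against 57.7 and 59.9 CPM, and its monocyte and dendritic markers to 1717 CPM against 2500 and 2592 CPM. The part of these cells in the receptor values was not tested.

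Flt3 had the largest fold changes of the receptors against the controls at 10000 and 2500 ppm with all libraries kept. It read 61.9, 79.2, 54.6 and 146 CPM at 10000 ppm, and a lowest, median and highest of 52.5, 82.1 and 129 CPM at 2500 ppm. These ranges overlapped the controls through their highest library. The log2 fold changes were 1.23 ± 0.45 (SE; adjusted p = 0.126) and 1.21 ± 0.42 (SE; adjusted p = 0.185), and DESeq2 called the first (adjusted p = 0.0478). Without untreated replicate 3 they were 0.85 (adjusted p = 0.324) and 0.81 (adjusted p = 0.510). At 1250 ppm, Flt3 read 45.6, 64.4, 54.7 and 27.6 CPM, with a log2 fold change of 0.41 that became -0.0048 without that control.

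Markers of other cells moved in the same comparisons with the untreated mice. B cell markers were higher in 4 of 5 at 10000 ppm, 4 of 5 at 2500 ppm and 5 of 5 at 1250 ppm (median log2 fold changes 4.55, 3.69 and 3.62), with sums of 18.5 to 25.9 CPM in the controls and 32.7 to 77.3 CPM over the dose groups. None of 5 lymphoid progenitor markers was called at any dose in edgeR (medians 0.67, 0.93 and 0.36). Late erythroid markers had medians of 4.96, 1.78 and 1.83, with 2, 0 and 0 of 6 called higher. Their sums were 57.7 to 211 CPM in the controls (median 59.9), with group medians of 217, 82.0 and 121 CPM at 10000, 2500 and 1250 ppm. Macrophage markers had medians of 3.44, 3.55 and 3.45, with 0, 0 and 6 of 10 called higher. Their sums, however, were 382 to 476 CPM in the controls, above the group medians at the 3 doses (261, 307 and 221 CPM). The highest libraries at 10000 and 2500 ppm (428 and 409 CPM) reached into the control range, and at 1250 ppm the highest was 274 CPM. Of 7 mast and basophil markers, 1 was lower at 2500 ppm and 4 at 1250 ppm. Their part in the receptor values was not tested.

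Il6ra at 1250 ppm read 126, 122, 112 and 112 CPM, between the high and the low controls (log2 fold change -0.19, adjusted p = 0.538). Without untreated replicate 3 it was the 1 receptor called at that dose (-0.48, adjusted p = 0.0457), beside 1234 of 13846 genes. The other 11 of 12 alternatives gave no call, and over all 12 the difference ran from -0.48 to -0.014. At 10000 ppm Il6ra read 123, 139, 135 and 95.7 CPM (-0.13, and -0.39 with an adjusted p of 0.205 without untreated replicate 3).

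Csf1r read 122, 171, 155 and 140.2 CPM at 10000 ppm and 124, 132, 116 and 105 CPM at 1250 ppm, and ran from 121 to 262 CPM with a median of 191 at 2500 ppm. All 3 dose groups overlapped the controls, and the largest difference was 0.49 at 2500 ppm (95% interval -0.0058 to 0.98, adjusted p = 0.334), or 0.19 without untreated replicate 3. Csf3r varied widely at 10000 ppm and less in the other groups, with 368, 445, 253 and 153 CPM at 10000 ppm, 246 to 295 CPM at 1250 ppm and 212 to 342 CPM at 2500 ppm. Its log2 differences from the controls lay between -0.10 and 0.07, and the 95% intervals reached from -0.63 to 0.60.

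Epor was low and varied most among replicates. At 10000 ppm it read 17.1, 13.02, 16.6 and 40.3 CPM, at 1250 ppm 15.9, 15.7, 26.7 and 8.89 CPM, and at 2500 ppm 5.28 to 30.1 CPM with a median of 10.2. The log2 differences of 0.47, 0.11 and -0.32 from the controls at 10000, 1250 and 2500 ppm had adjusted p values from 0.680 to 0.923. Without untreated replicate 3 they became 1.58, 1.18 and 0.77, so that the sign turned at 2500 ppm. Other libraries moved them too: the difference at 10000 ppm was 0.019 without 10000 ppm replicate 4, 0.15 without untreated replicate 1 and 0.18 without untreated replicate 2. The difference at 2500 ppm was -0.78 without 2500 ppm replicate 4, -0.66 without untreated replicate 1 and -0.63 without untreated replicate 2. At 1250 ppm it turned to -0.23 without 1250 ppm replicate 4, to -0.25 without untreated replicate 1 and to -0.22 without untreated replicate 2. The library with the highest Epor was also the highest of its group for the late erythroid sum among the untreated mice (replicate 3, 211 CPM), at 2500 ppm (replicate 4, 207 CPM) and at 1250 ppm (replicate 4, 175 CPM). At 10000 ppm the highest sum, 827 CPM, was in replicate 2, and replicate 4, the highest for Epor, had 289 CPM. The part of these cells in the Epor values was not tested.

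The highest dose was also set against the lowest, which leaves out the untreated mice. Of the 6 receptors 1 was called, Kit, beside 18.1% of all genes. Kit read 502, 492, 716 and 789 CPM at 10000 ppm and 429, 521, 511 and 376 CPM at 1250 ppm. The groups overlapped, and the 10000 ppm group held its counts mainly in replicates 3 and 4. The log2 fold change was 0.44 ± 0.14 (SE; adjusted p = 0.0458). It lost the call without 10000 ppm replicate 3 (0.42, adjusted p = 0.0760) or 4 (0.34, adjusted p = 0.0985), and without 1250 ppm replicate 1 (0.41, adjusted p = 0.111) or 5 (0.36, adjusted p = 0.137). Against the controls Kit differed by 0.13 at 10000 ppm, 0.10 at 2500 ppm and -0.31 at 1250 ppm (adjusted p from 0.191 to 0.788).

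A slope on log2 dose over the 14 treated libraries called none of the receptors, beside 10.7% of all genes. Kit had a slope of 0.13 per doubling of the dose (unadjusted p = 0.0360 in edgeR, adjusted p = 0.143), Flt3 had a slope of 0.23 (adjusted p = 0.263) and Il6ra of 0.0013 (adjusted p = 0.992). For that slope, 3686 of 12849 genes had an unadjusted edgeR p under 0.05. DESeq2 also called 0 of the 6 there.

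Around the receptors, 4 of 18 partner receptors were called between 10000 and 1250 ppm, 3 higher and 1 lower, a share near the 18.1% of all genes. Il6st, at 75.2 to 119 CPM against 78.3 to 98.5 CPM, was not called (log2 fold change 0.12, adjusted p = 0.785). Of 23 signal transducers 3 were higher, among them Stat5b (0.30, adjusted p = 0.0225), which was lower in the fetal homozygous deletion. Both this list and the 16 target genes had a smaller share called than all genes. Of the 16 target genes 1 was called and was lower: Etv4, at 0.31 to 0.85 CPM against 2.05 to 6.52 CPM (-2.63, adjusted p = 0.0257). In the same contrast 3 of 6 late erythroid markers (median log2 fold change 3.15) and 5 of 7 megakaryocyte markers (1.48) were higher, and of 7 neutrophil progenitor markers 3 were higher and 1 lower (1.67). Their part in these values was not tested.

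**Figure D4:**
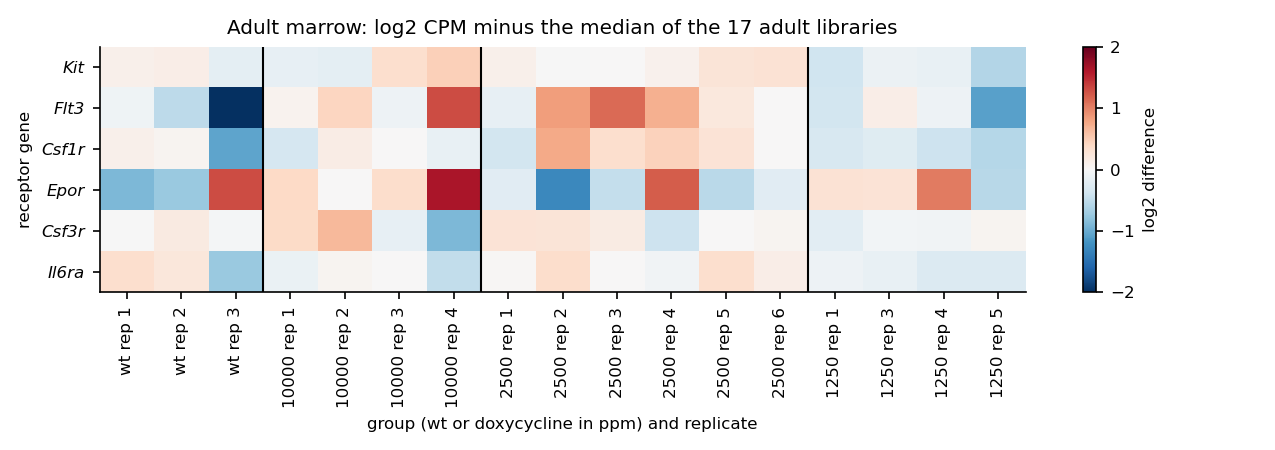
Log2 CPM of each receptor in each of the 17 adult libraries minus that receptor's median over them (color scale cut at -2 and 2). Untreated replicate 3 is low for Flt3, Csf1r and Il6ra and high for Epor, and replicate 4 of the 10000 ppm group is high for Flt3 and Epor and low for Csf3r.

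Per kilobase of exon, Kit was the most abundant of the receptors in the flox control, at a mean of 60.5 CPM per kb, followed by Csf1r (44.4), Csf3r (42.2), Epor (24.2), Il6ra (12.7) and Flt3 (11.04). In the homozygous deletion the order of means was Csf3r (42.8), Kit (31.8), Epor (12.0), Il6ra (5.80), Csf1r (4.85) and Flt3 (2.19). By group mean, Csf1r thus moved from the second place to the fifth. In flox control replicate 3, however, Csf3r was above Csf1r (51.5 against 49.4 CPM per kb). In untreated adults Csf3r led with 81.3 CPM per kb, before Kit with 64.3 and Csf1r with 23.2.

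Across the groups, with the Vav1-Cre libraries of the batches kept apart, Csf3r separated the stages. Its 4 adult group means lay between 271 and 304 CPM and its 6 fetal means between 128 and 155 CPM, although the lowest adult library, 153 CPM in replicate 4 at 10000 ppm, reached into the fetal range. The adult groups overlapped each other in the order from 10000 ppm to 1250 ppm. Fetal liver and adult marrow differ in tissue and treatment besides age, so no test was made across them.

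Epor ran the other way: its fetal group means, from 23.0 to 48.9 CPM, lay above its adult means, from 12.7 to 21.7 CPM, and the nearest of these were close. Adult libraries at 40.3, 32.3, 30.1 and 26.7 CPM lay within the range of the fetal libraries, 20.9 to 63.5 CPM. The gene had its highest mean of 48.9 CPM in the Vav1-Cre library of batch A and its lowest, 12.7 ± 8.82 (SD, n = 6), at 2500 ppm. The Vav1-Cre library of batch B read 23.0 CPM, within the range of the batch A libraries (20.9 to 63.5 CPM). With 1 Vav1-Cre library in each batch, a difference between the batches was not tested. Kit, Flt3, Csf1r and Il6ra each had their lowest group mean in the homozygous deletion. For Kit, Csf1r and Il6ra that group did not overlap the next one up, which was S34F for Kit, 1250 ppm for Csf1r and the heterozygous deletion for Il6ra. For Flt3 it overlapped the untreated adults through their replicate 3.

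Genes most like each receptor were sought by Pearson r of log2 CPM over the 17 adult libraries, among 9194 genes, as a description. These libraries differed in total counts (32532540 to 70002150) and in marker sums (late erythroid, 37.4 to 827 CPM). The part of these differences in the r values was not tested. Csf1r was followed most closely by Rasa4 (r = 0.939) and Irf8 (0.933), and Flt3 by Cpne5 (0.947) and Cxxc5 (0.938). For Epor they were Sept8 (0.989) and Spire1 (0.980), for Kit Aaed1 (0.938) and Trim44 (0.937), for Csf3r Pstpip1 (0.961) and Cpeb2 (0.957), and for Il6ra Cds1 (0.943) and Arhgap17 (0.925). Among the receptors themselves, Csf1r and Il6ra had an r of 0.765, Csf1r and Flt3 of 0.764, and Epor and Il6ra of -0.808.

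Over the 10 libraries of fetal batch A the nearest genes were Pld4 (0.998) and Cds1 (0.997) for Csf1r, Mpeg1 (0.995) and Cntln (0.992) for Il6ra, Muc13 (0.998) and Rad50 (0.991) for Kit, Rtn4rl1 and Ctnnd2 (both 0.996) for Flt3, Slc22a23 (0.995) and Myh10 (0.989) for Epor, and Hlx (0.924) and Tnf (0.923) for Csf3r. For Csf1r, Il6ra, Kit and Flt3 the 3 homozygous libraries lay below the other 7. The part of that separation in these r values was not tested. Cds1 was near a receptor in both sets, Il6ra in adults and Csf1r in the fetus.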

How the data were processed

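RNA-seq was analysed in 32 libraries of sorted mouse progenitors, 15 fetal and 17 adult. The values are raw counts per Ensembl gene that the authors deposited. Reads, sequenced as 2 × 150 bases after ribosomal RNA depletion, were mapped with HISAT2 2.1.0 to GRCm38, per the labels' design text. The counting tool, annotation release and use of strand are not given in the sources used here. Symbols, exon lengths and positions were taken from GENCODE M21 (27668 IDs matched, 60 did not). U2af1 was not analysed here.

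Counts were TMM-scaled and tested with edgeR 4.0.16 (quasi-likelihood test, filterByExpr) in R 4.3.3, in 1 model of 9 fetal batch A libraries, 1 of 17 adult libraries, and 1 of 14 treated adult libraries for the slope on log2 dose. Calls needed a Benjamini-Hochberg adjusted p under 0.05 over all genes tested. Log2 CPM used a prior count of 2. The S34F rule used genes with a mean of at least 10 counts, and the likeness search protein-coding genes with at least 50. Reads had no molecular identifiers. The fit was also run on simulated counts, and the outcome is not reported here. The receptors and lists were chosen with earlier results of these data known. Named genes are all receptors, the 2 most alike genes in each stage, up to 4 called genes per list with the largest change in the homozygous deletion, and Il6st, of which some are not reported here. The marker genes Cd5l and Marco, and genes whose exons overlap a receptor, were named after their values or annotation were seen. Alternatives were DESeq2 1.42.0, median-ratio (RLE) factors, no filter on low counts, the replicate number as a block, only the compared groups, all 15 fetal libraries with batch, the rank of the dose, and leaving out each replicate in turn.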

Additional observations from a re-analysis of the deposited data

Results flagged for a closer look

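Among 24 receptor and group combinations of 4 to 6 libraries, 2 had a library far from the rest of its group by Dixon's test, where chance gives about 1 in 20. Both concern Epor in adult marrow. At 10000 ppm doxycycline, replicate 4 read 40.3 CPM, and the next library 17.1 CPM. At 2500 ppm, replicate 4 read 30.1 CPM, and the next library 11.2 CPM. Late erythroid markers summed to 289 CPM in the first of these libraries, within the range of its group (137 to 827 CPM), and to 207 CPM in the second, the highest of its group (37.4 to 93.8 CPM in the others). Their part was not tested.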

How the results depend on the processing

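The falls of Csf1r, Flt3, Kit and Il6ra in the homozygous deletion kept their direction and their call in both comparisons under the alternatives run. Equal replicate numbers did not pair the libraries by the rule that every pair correlates over 0.1: deviations of equally numbered libraries correlated at -0.16 to 0.14 in 7 fetal pairs (1 over 0.1) and -0.27 to 0.52 in 19 adult pairs (6 over 0.1). Between 10000 and 2500 ppm, replicates 1, 2 and 4 gave 0.34, 0.33 and 0.52 and replicate 3 gave -0.27, and the 2 libraries far from their groups for Epor are the replicates 4 of these groups. With the replicate block, 4 receptors were called in the homozygous against the flox comparison in place of 5, since Epor lost its call (-0.92, adjusted p = 0.135).

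Receptors called in the heterozygous against the flox comparison numbered 1 under DESeq2 and 1 with no filter, and 0 to 1 without single libraries. At 10000 ppm against untreated, DESeq2 called 1, and at 1250 ppm the number was 0 to 1 without single libraries. At 10000 against 1250 ppm, Kit lost its call with no filter (0.46, adjusted p = 0.0664), the replicate block (0.45, adjusted p = 0.0822) and only the compared groups (0.47, adjusted p = 0.112), which left 0 called, and the number was 0 to 1 without single libraries. Epor in the homozygous against the heterozygous comparison was called with no filter (-0.60, adjusted p = 0.00286) and with only the compared groups (-0.59, adjusted p = 0.00155).

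Uncalled log2 fold changes near 0 changed sign, and the cause was not tested. For Csf3r, the homozygous against the flox comparison gave -0.00042 with no filter, and -0.069 to 0.18 without single libraries. The heterozygous against the flox comparison gave -0.0018 under DESeq2 and -0.00016 with RLE factors (-0.066 to 0.17 without single libraries). The homozygous against the heterozygous comparison gave 0.021 under DESeq2, 0.023 with RLE factors, 0.0088 with only the compared groups and 0.034 with all fetal libraries (-0.077 to 0.052 without single libraries). With the replicate block, Csf3r was 0.18 at 1250 ppm against untreated, -0.042 at 10000 against 1250 ppm and -0.0089 per doubling of the dose, and Epor was -0.23 at 1250 ppm against untreated. The Il6ra slope was -0.0011 under DESeq2, -0.013 with no filter and -0.0087 with the replicate block.

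Without single libraries, the heterozygous against the flox comparison ranged from -0.094 to 0.021 for Kit and -0.019 to 0.46 for Flt3. At 10000 ppm against untreated, the range was -0.18 to 0.30 for Csf3r, -0.39 to 0.073 for Il6ra and -0.14 to 0.34 for Csf1r. At 2500 ppm it was -0.028 to 0.10 for Csf3r, -0.0052 to 0.16 for Kit, -0.78 to 0.77 for Epor and -0.16 to 0.31 for Il6ra. At 1250 ppm it was -0.25 to 1.18 for Epor, -0.47 to 0.013 for Csf1r and -0.0048 to 0.82 for Flt3. At 10000 against 1250 ppm it was -0.079 to 0.42 for Csf3r, -0.0094 to 0.19 for Il6ra and -0.082 to 0.73 for Epor. Slopes ranged from -0.019 to 0.049 for Il6ra, -0.027 to 0.14 for Csf3r and -0.0061 to 0.28 for Epor.

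The number of genes called over the whole table, against which the receptors are read, moved more. It was 4 for the heterozygous against the flox comparison (0 with the replicate block, 230 with no filter, 269 without flox control replicate 3), 169 at 10000 ppm against untreated (1 with only the compared groups, 1057 under DESeq2, 0 without untreated replicate 2), 65 at 2500 ppm (4 with only the compared groups, 558 under DESeq2, 0 without untreated replicate 2), 1524 at 1250 ppm (438 with the replicate block, 3165 with only the compared groups, 68 without untreated replicate 2), 2420 at 10000 against 1250 ppm (1052 with only the compared groups, 1118 without 1250 ppm replicate 5) and 1376 for the slope (33 with the replicate block, 2248 under DESeq2, 87 without 10000 ppm replicate 2).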
